A study of Mus musculus with 4 samples.

Results

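A set of 40 genes of the unfolded protein response and the integrated stress response was examined in alveolar type II (AT2) cells sorted from injured mouse lungs. The members were the rows of the gene count table whose symbol is on a list of 40 genes: the sensors and kinases that start both responses, the transcription factors and effectors behind them, and the chaperones, disulphide isomerases, degradation and translocation factors of the endoplasmic reticulum (ER). All 40 were found among the 40092 rows, and all 40 were among the 16661 genes with enough counts to be tested. The 2 Ctrl libraries came from Alkbh5flox/+ littermates and the 2 A5-CKO libraries from Alkbh5flox/flox mice, so the controls carried the floxed allele on 1 chromosome and were not wild type. All the mice also carried Sftpc-CreERT2, a tamoxifen-inducible recombinase driven by the promoter of the surfactant gene Sftpc, and Rosa26-mTmG, a reporter that turns recombined cells green. All received tamoxifen and then bleomycin, a drug that injures the alveolar epithelium, and GFP+ cells were sorted on day 14. No uninjured mice were among these libraries, and the age and sex of the mice are not given in the sources used here.

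The ER folds secreted and membrane proteins, and AT2 cells, which make and export surfactant proteins, depend on it heavily. When unfolded proteins accumulate, 3 sensors respond: IRE1 (Ern1) splices the Xbp1 mRNA, ATF6 is cut to release a transcription factor, and PERK (Eif2ak3) phosphorylates the translation factor eIF2α (Eif2s1). PERK shares that substrate with PKR (Eif2ak2), GCN2 (Eif2ak4) and HRI (Eif2ak1), which sense double-stranded RNA, amino acid shortage and haem shortage, and this common route through ATF4 is the integrated stress response. Gene counts measure the amount of mRNA only. They do not separate spliced from unspliced Xbp1, and they do not show phosphorylation of eIF2α, cleavage of ATF6 or translation of Atf4.

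Many of these genes carry known stress elements close to their start, and the promoters of those the results turn on are printed here, to show which hold an ER stress element and which an ATF4 element. The promoter windows (RefSeq, GRCm38.p6, 250 bases before to 50 after the annotated start) were found for 34 members, and Atf6, Ppp1r15b, Hyou1, Hspa13, Manf and Derl1 had no entry. Both strands were searched. The ER stress element ERSE (CCAAT and CCACG with any 9 bases between them), which ATF6 binds together with NF-Y, was found in 9 of the 34 (26.5%) and in 0.137% of 27025 genes with a window. These were Hspa5, Hsp90b1, Calr, Canx, Dnajc3, Creld2, Pdia6, Syvn1 and Derl3. The related ERSE-II (ATTGG and CCACG with any 1 base between them) was found in Dnajb11 and Herpud1, and in 0.0444% of all genes. The core of the C/EBP-ATF response element (CARE, TGATGNAA), to which ATF4 binds, was found in Trib3, Chac1, Asns and Herpud1, 11.8% of the members and 4.51% of all genes. The CCAAT box, which is part of every ERSE, was by itself in 24 of the 34 windows (70.6%) and in 41.1% of all genes. The XBP1 element UPRE (TGACGTGG) was in none of the 34 windows and in 0.714% of all genes. The 250 bases upstream of 6 members follow on the strand of the gene, with matches to ERSE, ERSE-II or CARE in either direction in capitals.
Hspa5 (chr2:34771840-34772089, plus strand): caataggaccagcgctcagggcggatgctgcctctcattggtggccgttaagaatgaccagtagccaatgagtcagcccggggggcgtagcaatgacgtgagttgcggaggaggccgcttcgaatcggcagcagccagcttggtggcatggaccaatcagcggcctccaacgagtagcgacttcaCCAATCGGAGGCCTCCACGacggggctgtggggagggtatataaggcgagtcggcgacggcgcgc
Hsp90b1 (chr10:86705445-86705694, minus strand): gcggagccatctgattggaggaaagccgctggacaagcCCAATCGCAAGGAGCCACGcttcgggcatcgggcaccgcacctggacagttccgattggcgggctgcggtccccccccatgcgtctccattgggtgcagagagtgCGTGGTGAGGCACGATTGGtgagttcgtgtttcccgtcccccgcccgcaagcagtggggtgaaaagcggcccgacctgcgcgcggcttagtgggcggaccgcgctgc
Creld2 (chr15:88819396-88819645, plus strand): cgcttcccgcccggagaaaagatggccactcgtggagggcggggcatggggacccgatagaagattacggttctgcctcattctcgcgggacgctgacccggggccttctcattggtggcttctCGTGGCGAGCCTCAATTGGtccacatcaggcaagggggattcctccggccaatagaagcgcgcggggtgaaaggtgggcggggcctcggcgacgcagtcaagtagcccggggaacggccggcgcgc
Herpud1 (chr8:94386179-94386428, plus strand): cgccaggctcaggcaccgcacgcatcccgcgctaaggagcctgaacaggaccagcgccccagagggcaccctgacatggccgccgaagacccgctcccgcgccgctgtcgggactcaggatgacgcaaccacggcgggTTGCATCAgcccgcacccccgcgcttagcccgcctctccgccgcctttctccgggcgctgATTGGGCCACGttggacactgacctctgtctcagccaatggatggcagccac
Chac1 (chr2:119350992-119351241, plus strand): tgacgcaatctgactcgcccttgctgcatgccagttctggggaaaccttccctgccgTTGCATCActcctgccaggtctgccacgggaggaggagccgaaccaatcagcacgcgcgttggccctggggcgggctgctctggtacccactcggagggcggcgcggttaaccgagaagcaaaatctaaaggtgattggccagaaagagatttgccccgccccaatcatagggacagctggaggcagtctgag
Asns (chr6:7693210-7693459, minus strand): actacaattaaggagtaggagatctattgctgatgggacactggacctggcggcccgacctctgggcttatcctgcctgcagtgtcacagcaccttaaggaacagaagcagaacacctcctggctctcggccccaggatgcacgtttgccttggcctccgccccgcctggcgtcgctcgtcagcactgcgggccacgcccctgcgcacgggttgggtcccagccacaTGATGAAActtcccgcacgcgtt
In Hspa5 the ERSE began 65 bases before the start, and Hsp90b1 held an ERSE on each strand, beginning 212 and 107 bases before it. Herpud1 held an ERSE-II at 52 bases and a CARE core at 112 bases before the start. The CARE core of Asns lay 23 bases before the start and that of Chac1 193 bases before it, while the core of Trib3 began 15 bases after the start and so lies outside the stretch printed.

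**Figure D1:**
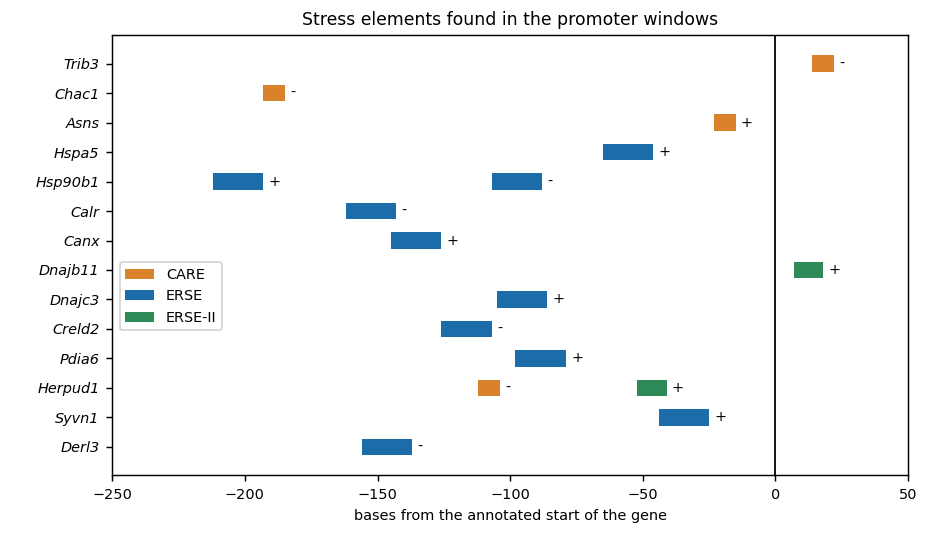
Positions of ERSE (blue), ERSE-II (green) and CARE (orange) matches in the promoter windows of the 14 members that held one, in bases from the annotated start (x axis), with the strand relative to the gene beside each bar. The ERSE matches all lie upstream of the start, between 212 and 44 bases before it for their first base, and the Dnajb11 and Trib3 matches lie downstream.

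The libraries held 18144865 to 20811757 counts, and no member had fewer than 34 counts in any library (Chac1 in A5-CKO 1). Levels are given as CPM, the counts relative to the library total after edgeR's TMM scaling, in the order Ctrl 1, Ctrl 2, A5-CKO 1 and A5-CKO 2 throughout. Alkbh5, the targeted gene, had 81.7, 152, 19.3 and 36.6 CPM, lower in A5-CKO without overlap (log2 fold change -2.06, standard error 0.46; by the quasi-likelihood test of edgeR the adjusted p was 0.528). All 10 AT2 markers listed were above 1 CPM in every library, but their summed level was 56704, 82175, 42221 and 34897 CPM, lower in both A5-CKO libraries, and 7 of the 10 were below in both. Markers of other cells were present as well. The 10 macrophage markers, all above 1 CPM in every library, summed to 1007, 201, 255 and 1268 CPM, the 12 plasma and B cell markers, 11 of them above 1 CPM in every library, to 5909, 2935, 2141 and 6668 CPM, and the 7 fibroblast markers to 398, 149, 96.2 and 1025 CPM, so that Ctrl 1 and A5-CKO 2 were high in all 3 lists. The sums of 5 markers of the transitional state between AT2 and AT1 cells were also high in Ctrl 1 and A5-CKO 2, at 2259.9, 1063, 1458 and 2401 CPM. Of the 12 plasma and B cell markers, 5 were below Ctrl in both A5-CKO libraries and 0 above, where 23.5% and 20.3% of all genes tested were. For the macrophage markers these counts were 0 and 1, and for the fibroblast markers 0 and 0. The T cell, endothelial, AT1, club, ciliated and goblet lists had other orders, and their sums ranged from 12.3 CPM for T cell markers in A5-CKO 2 to 2753 CPM for club cell markers in Ctrl 1. In bulk libraries, fewer cells of a type and less RNA per cell cannot be told apart.

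The most abundant members per length of transcript were mainly chaperones and disulphide isomerases. On the scale of mean CPM per kb of the longest annotated transcript in Ctrl, P4hb (protein disulphide isomerase) was at 457, Calr (calreticulin, a lectin chaperone) at 421 and Hspa5 (BiP, the central ER chaperone) at 248. Herpud1, a membrane protein of ER-associated degradation, was at 271 in Ctrl and at 136 in A5-CKO. At the other end stood Derl2 at 3.11 and Ern1 at 3.98, followed by Eif2ak4 at 6.19, Chac1 at 6.42 and Eif2ak2 at 6.53. The ER sensors were thus among the lowest members and the folding machinery among the highest.

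**Figure D2:**
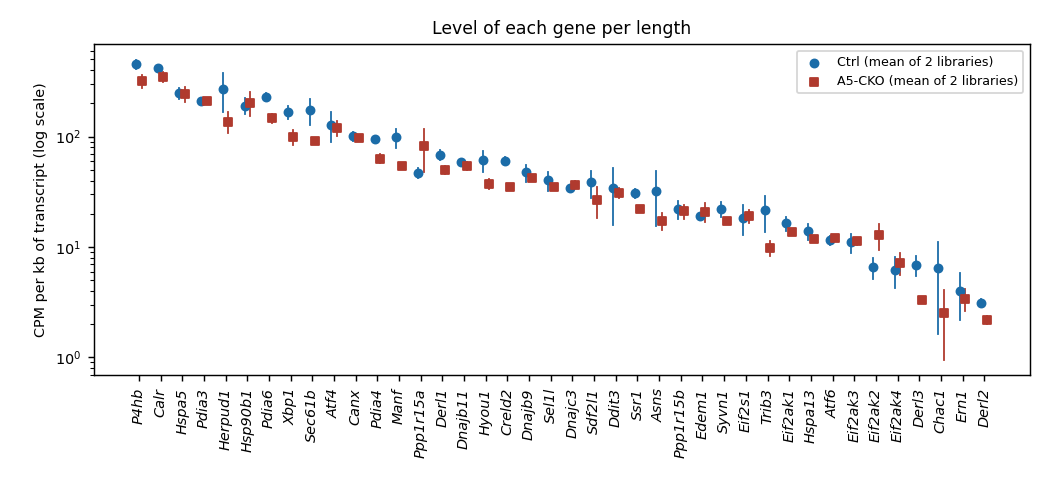
Level of each of the 40 genes in CPM per kb of transcript (y axis, log scale), ordered by the mean of both genotypes. Points are means of 2 libraries, Ctrl in blue and A5-CKO in red, and the vertical lines join the 2 libraries of a genotype. P4hb and Calr lead in both genotypes and Derl2 is lowest in both.

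The comparison of A5-CKO with Ctrl asks what loss of Alkbh5, an m6A demethylase of mRNA, changes in AT2 cells during repair. Most members were lower in A5-CKO: 31 of 40 had a negative log2 fold change and 9 a positive one, where 49.1% of all genes tested had a positive one. With library totals only as scaling, 18 of 40 were negative, against 31.4% of all genes tested. That scaling moves the median of all genes from -0.02 to 0.30. The median log2 fold change of the members was -0.25 against -0.02 for all genes tested, a distance of -0.23. With library totals only the distance was also -0.23, but a change of scaling moves all genes nearly alike, so it could hardly have differed. The members' own median was 0.07 with that scaling. The distance was -0.18 with at least 10 counts in every library, -0.37 without Ctrl 2 and -0.49 without a filter on low counts. Without that filter 27072 genes were tested, with a median of 0.21, and the members' own median was -0.28. No member passed at an adjusted p of 0.05, either by the quasi-likelihood test of edgeR or by DESeq2. Over all genes the share called was 0% in edgeR (0 of 16661, with 1530 at an unadjusted p under 0.05) and 0.33% in DESeq2 (55 genes). At an unadjusted p under 0.05 stood 5 of the 40, where 9.18% of all genes did. Of these, 4 were lower, where 4.71% of all genes were, namely Trib3, Manf, Creld2 and Sec61b. In the other direction there was 1, Eif2ak2, where 4.48% of all genes were. On GRCm38.p6 these genes span Trib3 at chr2:152337425-152344060, Manf at chr9:106888753-106891938, Creld2 at chr15:88819646-88826681, Sec61b at chr4:47474661-47483233 and Eif2ak2 at chr17:78850504-78882572. For 16 of the 40 the higher A5-CKO library was below the lower Ctrl library, against 23.5% of all genes tested, and 1 was above without overlap, against 20.3%. With library totals only, no member was lower at an unadjusted p under 0.05 and 2, Ppp1r15a and Eif2ak2, were higher. Of all 16661 genes, 1877 stood under that p in edgeR, both directions together. Corrected for GC content and length, 4 were lower, Hyou1, Manf, Ssr1 and Hspa13, of which only Manf was among the 4 above. Of the 15237 genes so corrected, 1075 stood under that p, both directions together. With library totals only the counts without overlap were 7 below and 8 above, against 10.1% and 34.8% of all genes.

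**Figure D3:**
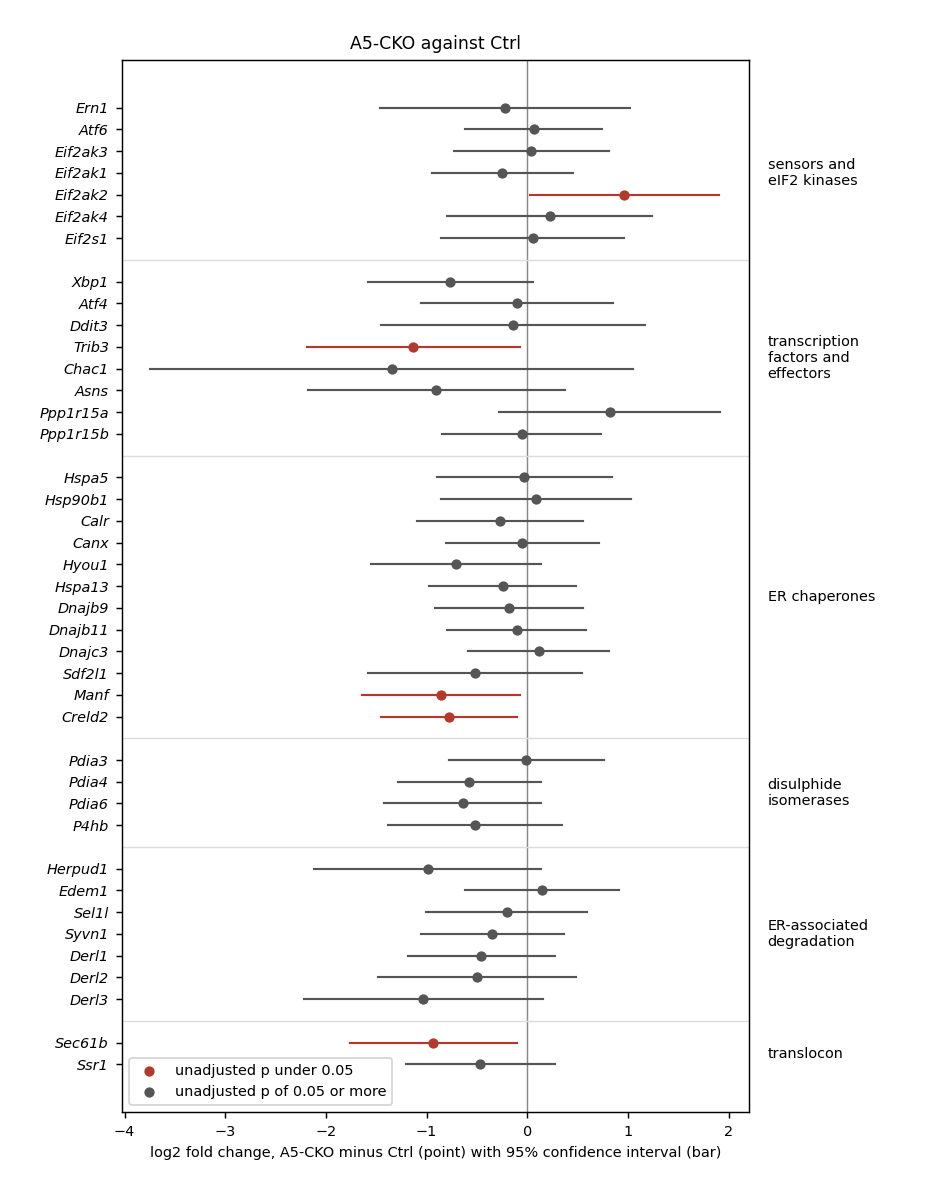
Log2 fold change of each member, A5-CKO minus Ctrl (x axis), from edgeR's quasi-likelihood fit on TMM-scaled counts, with 95% confidence intervals, grouped by role. Of the 40 intervals, 5 leave out 0, those of Trib3, Manf, Creld2 and Sec61b on the lower side and of Eif2ak2 on the higher side.

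Among the sensors and eIF2 kinases, 1 of 7 had an unadjusted p under 0.05, and the 3 ER sensors differed little. Ern1 had 15.1, 40.1, 18.4 and 29.1 CPM. Atf6 had 76.3, 92.0, 81.9 and 93.9 CPM, and Eif2ak3 had 39.7, 59.5, 47.1 and 54.9 CPM. In all 3 the range of the A5-CKO libraries overlapped that of the Ctrl libraries, and Ern1 was 2.65 times as high in Ctrl 2 as in Ctrl 1. The fitted differences on the log2 scale were -0.22 for Ern1 (95% interval -1.46 to 1.02), 0.06 for Atf6 (-0.62 to 0.74) and 0.04 for Eif2ak3 (-0.73 to 0.81). With 2 libraries a genotype these intervals are wide, and they leave room for differences in either direction.
The eIF2 kinase PKR, Eif2ak2, was the one member of the 40 that was higher in A5-CKO without overlap. It had 34.1, 22.2, 69.2 and 40.6 CPM, or 28.2 ± 8.41 in Ctrl and 54.9 ± 20.2 in A5-CKO (SD, n = 2). The log2 fold change was 0.96 (95% interval 0.02 to 1.90, unadjusted p = 0.0462, adjusted p = 0.528, edgeR), and it was 0.53 without A5-CKO 1 and 0.65 after correction for GC content and length. The gap between the lower A5-CKO library and the higher Ctrl library was small beside the gap between the 2 A5-CKO libraries. Eif2ak4 (22.6, 43.0, 47.0 and 29.5 CPM), Eif2ak1 (60.6, 81.0, 57.8 and 61.3 CPM) and Eif2s1, the substrate itself (82.4, 43.5, 56.3 and 74.3 CPM), overlapped between genotypes, with log2 fold changes of 0.22, -0.25 and 0.05.

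Of the 8 transcription factors and stress effectors, 7 had a negative log2 fold change. Xbp1 and Trib3, 2 of the 8, were lower in A5-CKO without overlap, a share near the 23.5% of all genes tested. Xbp1, the transcription factor that IRE1 activates by splicing, had 308, 405, 177 and 242 CPM. The log2 fold change was -0.76 (standard error 0.34, 95% interval -1.58 to 0.05, unadjusted p = 0.0622 in the edgeR fit). This is a 0.589-fold level, and the distance between the closest libraries of the 2 genotypes, Ctrl 1 and A5-CKO 2, was about as large as that between the A5-CKO libraries.

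Atf4, the transcription factor of the integrated stress response, had 338, 179, 277 and 204 CPM, so the A5-CKO libraries lay between the Ctrl libraries (log2 fold change -0.10, 95% interval -1.06 to 0.85). The same held for Ddit3 (CHOP, which drives apoptosis in prolonged stress), with 50.7, 15.4, 33.0 and 26.8 CPM (-0.15, -1.46 to 1.17). In both genes Ctrl 1 was the highest and Ctrl 2 the lowest library, by 1.89 times for Atf4 and by 3.30 times for Ddit3.

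The targets downstream of ATF4 were set apart mainly by Ctrl 1. Trib3, a pseudokinase that feeds back on ATF4 and CHOP, had 59.2, 27.8, 16.7 and 23.0 CPM. Its log2 fold change was -1.13 (standard error 0.45, 95% interval -2.19 to -0.07, unadjusted p = 0.0394, adjusted p = 0.528, edgeR), and -0.40 without Ctrl 1. Chac1, which degrades glutathione, had 18.3, 2.68, 1.54 and 6.71 CPM. The A5-CKO libraries fell on either side of Ctrl 2, and the log2 fold change of -1.35 (95% interval -3.75 to 1.05) became 0.72 without Ctrl 1. Asns, the asparagine synthetase, had 98.7, 31.5, 28.6 and 41.0 CPM, with a log2 fold change of -0.90 that became 0.23 without Ctrl 1. Ddit3, Trib3, Chac1 and Asns were at least 2-fold higher in Ctrl 1 than in Ctrl 2, 4 of the 40 members, where 12.9% of all genes tested were, and Ern1 and Herpud1 were so in the opposite direction, where 9.65% were. Over the members as a whole the 2 Ctrl libraries thus did not part more often than genes in general. Among 42 further ATF4 targets from a list of 43, 9 were at least 2-fold higher in Ctrl 1 and none in Ctrl 2. These include Nupr1 (933, 162, 243 and 194 CPM), a stress-induced chromatin protein, Atf5 (321, 74.0, 59.9 and 65.7 CPM), a related transcription factor, and Mthfd2 (29.5, 5.18, 9.37 and 16.3 CPM) of mitochondrial folate metabolism. Among the A5-CKO libraries 5 of the 42 (Stc2, Slc7a5, Phgdh, Psat1 and Eif4ebp1) were at least 2-fold higher in A5-CKO 2 and 1, Atf3, in A5-CKO 1. The share of all genes that differed so between the A5-CKO libraries was not counted. Over the 42, the median log2 difference was 0.41 for Ctrl 1 minus Ctrl 2, against 0.01 over all genes tested. For A5-CKO 1 minus A5-CKO 2 it was -0.39, against 0.05. The targets thus tended to be higher in Ctrl 1 and A5-CKO 2. Those libraries were also high in macrophage, plasma cell and fibroblast markers and in markers of the transitional state. The part of those cells or of that state in the result was not tested.

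The phosphatase subunits that reverse eIF2α phosphorylation gave different pictures. Ppp1r15a (GADD34, the inducible one) had 119, 145, 332 and 133 CPM, with A5-CKO 1 at 2.49 times A5-CKO 2 and the latter between the Ctrl libraries. Its log2 fold change was 0.82 (95% interval -0.28 to 1.92), and 0.02 without A5-CKO 1. Atf3, a stress transcription factor outside the 40, had the same outlying library, with 118, 123, 1148 and 135 CPM. A list of 8 genes known to respond to tissue dissociation summed to 2751, 5069, 8703 and 2199 CPM, also highest in A5-CKO 1, where Fosb reached 1704 CPM against 148 to 258 CPM in the other libraries. Whether dissociation had a part in the Ppp1r15a value was not tested. Ppp1r15b, the constitutive subunit, had 100.4, 145, 101 and 135 CPM (log2 fold change -0.06).

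**Figure D4:**
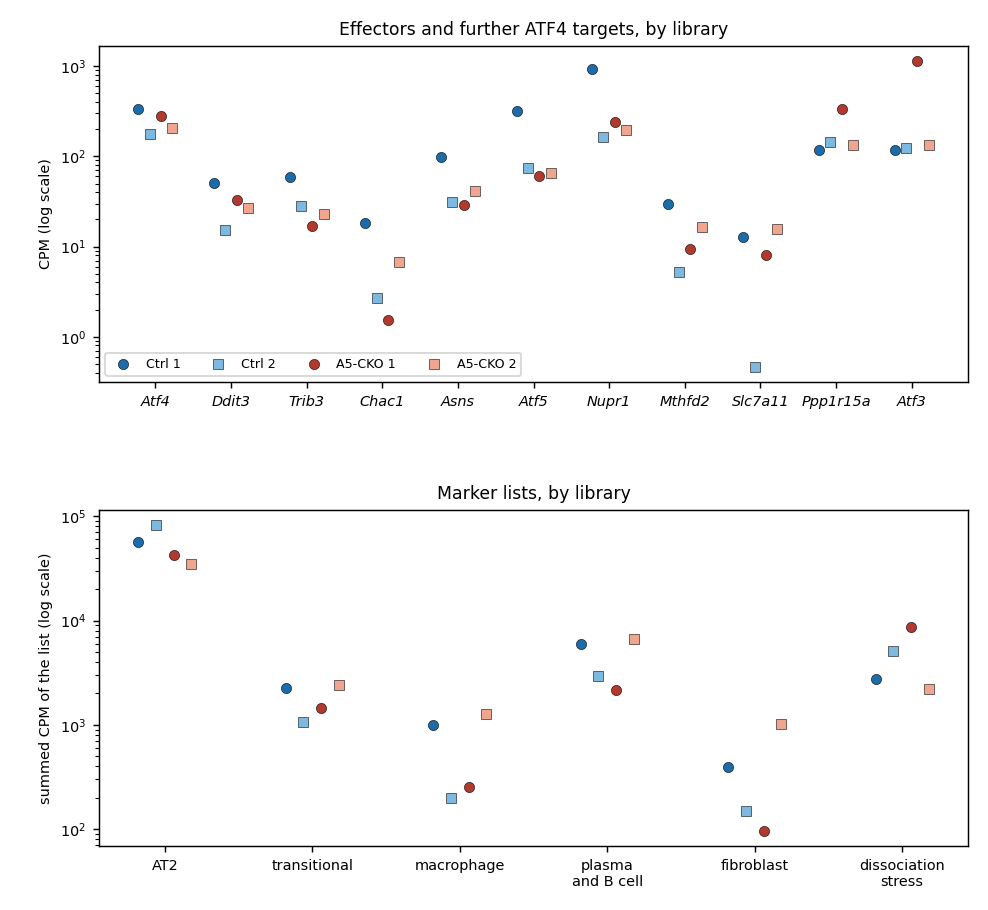
Level of 11 stress effectors and ATF4 targets (top) and summed level of 6 marker lists (bottom) in each of the 4 libraries, in CPM on log axes; circles are replicate 1 and squares replicate 2, Ctrl in blue and A5-CKO in red. Ctrl 1 is highest from Ddit3 to Mthfd2, and A5-CKO 1 is highest for Ppp1r15a (332 CPM), Atf3 (1148 CPM) and the dissociation list (8703 CPM).

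Of the 12 ER chaperones and co-chaperones, 10 had a negative log2 fold change. Below Ctrl in both A5-CKO libraries lay 4, where 23.5% of all genes tested did, while Hspa5, Hsp90b1 and Canx overlapped. Hspa5 (BiP) had 1018, 806, 1026 and 759 CPM, with replicate 1 of each genotype above replicate 2 of both (log2 fold change -0.03, 95% interval -0.90 to 0.84). Hsp90b1 (GRP94) had the same order, with 718, 513, 813 and 497 CPM (0.09). Canx (calnexin) had 473, 389, 419 and 415 CPM (-0.05). These 3 genes, the first 2 of them textbook readouts of the unfolded protein response, had differences close to 0, with intervals that still allow moderate ones.

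The 4 chaperones whose A5-CKO libraries both lay below Ctrl were Calr, Hyou1, Manf and Creld2. Manf, an ER-resident protein that is secreted under ER stress, had 265, 179, 115 and 129.6 CPM, or 222 ± 61.2 in Ctrl and 122 ± 10.2 in A5-CKO (SD, n = 2). Its log2 fold change was -0.86 (standard error 0.33, unadjusted p = 0.0358, adjusted p = 0.528, edgeR), and -0.46 without Ctrl 1. Creld2, an ER protein with a disulphide isomerase activity, had 76.1, 88.4, 45.6 and 50.4 CPM. It had the smallest unadjusted p of the 40, with 82.3 ± 8.72 in Ctrl and 48.0 ± 3.43 in A5-CKO (SD, n = 2). The log2 fold change was -0.78 (standard error 0.28, unadjusted p = 0.0292, adjusted p = 0.528, edgeR). Leaving out any single library moved it between -0.85 and -0.69, and the correction for GC content and length to -0.46. Hyou1, a large chaperone that works with BiP, had 236, 369, 164 and 205 CPM (-0.71, standard error 0.36). Calr had 872, 968, 675 and 847 CPM (-0.27), but with library totals only as scaling its log2 fold change was 0.05.

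The other 5 co-chaperones overlapped between genotypes. Dnajb9, Dnajb11 and Dnajc3, J-domain partners of BiP, had log2 fold changes of -0.18, -0.11 and 0.11. Hspa13, another HSP70-type protein, had -0.24, and -0.69 after correction for GC content and length, and Sdf2l1, a partner of Dnajb11, had 54.5, 30.8, 20.4 and 39.0 CPM (-0.52), with the 2 libraries of each genotype far apart. The 11 members with an ERSE or ERSE-II in the promoter window had a median log2 fold change of -0.27, with 9 negative and 2 positive, and 6 of the 11 were below Ctrl in both A5-CKO libraries, against 16 of all 40 members and 23.5% of all genes. With library totals only, 5 were negative and 3 below, where 31.4% and 10.1% of all genes were.

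**Figure D5:**
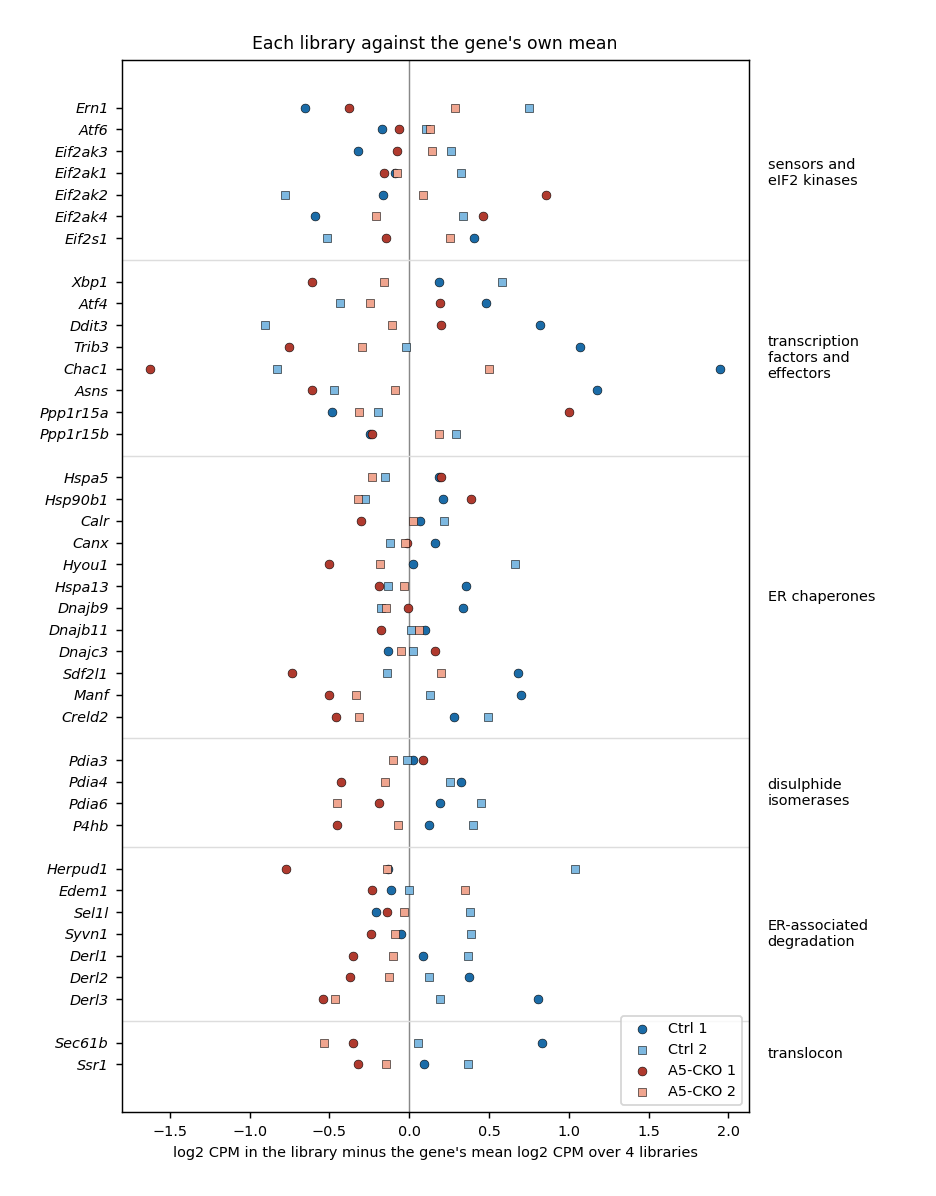
Log2 CPM of each member in each library minus the gene's mean log2 CPM over the 4 libraries (x axis), with genes grouped by role (y axis), Ctrl in blue and A5-CKO in red. Chac1 spans the widest range, Ctrl 1 is far to the right for Trib3, Chac1 and Asns, and both A5-CKO points lie left of both Ctrl points for Creld2, Manf, Pdia4, Pdia6 and Sec61b.

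The disulphide isomerases, which form and rearrange disulphide bonds in the ER, had a negative log2 fold change in 4 of 4. They lay below Ctrl in both A5-CKO libraries in 3, against 23.5% of all genes tested. Pdia4 had 232, 221, 137 and 167 CPM (log2 fold change -0.58). Pdia6 had 453, 543, 348 and 291 CPM (-0.64), and P4hb had 1184, 1429, 790.4 and 1033 CPM (-0.52). For Pdia4 the Ctrl libraries were close to each other and well above A5-CKO, whereas for P4hb Ctrl 1 and A5-CKO 2 were near. Pdia3, which works with calreticulin on glycoproteins, had 591, 578, 619 and 543 CPM, with the Ctrl libraries between the A5-CKO libraries (-0.01). The unadjusted p-values of these 3 lower genes were 0.0974, 0.0916 and 0.199 in the edgeR fit, and none passed.

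In ER-associated degradation, which pulls misfolded proteins out for destruction by the proteasome, 5 of 7 members lay below Ctrl in both A5-CKO libraries. Of all genes tested 23.5% did, and none of the 7 had an unadjusted p under 0.05. Herpud1 had 325, 732, 208 and 323 CPM, and its log2 fold change of -0.99 (95% interval -2.12 to 0.14) was -0.31 without Ctrl 2, which was 2.25 times Ctrl 1. Ctrl 1 and A5-CKO 2 were nearly equal. Derl3, a derlin of the retrotranslocation complex, had 10.9, 7.16, 4.30 and 4.53 CPM (-1.03, standard error 0.50), on 95 to 185 counts a library. Derl3 is also abundant in plasma cells. In Ctrl it was higher in the library with the higher plasma and B cell sum. In the A5-CKO libraries it was nearly equal, on 95 and 106 counts, where that sum was 2141 and 6668 CPM. The list was highest in A5-CKO 2 and Derl3 in Ctrl 1, and the part of plasma cells in the Derl3 values was not tested. Derl1 had 196, 239, 145 and 172 CPM (-0.46), and Derl2 had 14.8, 12.4, 8.83 and 10.4 CPM (-0.50). Syvn1, the ubiquitin ligase HRD1, had 76.4, 104, 67.1 and 74.5 CPM (-0.35). Its partner Sel1l had 202, 304, 212 and 228 CPM (-0.20) and Edem1, which marks glycoproteins for disposal, had 110.3, 119.7, 102 and 153 CPM (0.15), both with overlapping groups.

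Both translocon members, through which new proteins enter the ER, lay below Ctrl in both A5-CKO libraries, as did 23.5% of all genes tested. Sec61b, a subunit of the channel, had 159, 93.0, 69.9 and 61.8 CPM, with a log2 fold change of -0.94 (standard error 0.35, 95% interval -1.76 to -0.11, unadjusted p = 0.0321, adjusted p = 0.528, edgeR). The A5-CKO libraries were close together and Ctrl 1 was far above Ctrl 2, and the value was -0.42 without Ctrl 1 and -0.47 after correction for GC content and length. Ssr1, of the translocon-associated TRAP complex, had 259, 314, 195 and 220.0 CPM (-0.47), and -1.02 with that correction (unadjusted p = 0.00692 in edgeR). For the members as a whole, the deviations from each gene's own mean log2 CPM had medians of 0.14 and 0.11 in the Ctrl libraries and of -0.24 and -0.10 in the A5-CKO libraries. The AT2 marker sum had the same split between genotypes, and its part in these values was not tested.

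A further 121 genes of both responses were listed, and 115 were tested. Of these, 92 had a negative and 23 a positive log2 fold change, with a median of -0.38 against -0.02 for all genes tested. No adjusted p was under 0.05 in edgeR, 18 genes were lower and 1 higher at an unadjusted p under 0.05, where 4.71% and 4.48% of all genes were. Both A5-CKO libraries lay below Ctrl for 50 and above for 6, against 23.5% and 20.3% of all genes. With library totals only, 62 were negative, where 31.4% of all genes were. At an unadjusted p under 0.05 in edgeR, 2 were then lower and 2 higher. Of all 16661 genes, 1877 stood under that p, both directions together. Below Ctrl lay 24 and above 18, against 10.1% and 34.8%. Leaving out 1 library, the median ranged from -0.15 (without Ctrl 1) to -0.52 (without A5-CKO 2). In these 2 settings 71 and 97 were negative, where 46.6% and 53.8% of all genes were. The translocon and signal peptidase genes had 19 negative of 22 (median -0.61, 15 below Ctrl in both A5-CKO libraries), and the ER folding genes 17 of 21 (median -0.55, 12 below). Ssr2, a partner of Ssr1, had 422, 291, 152 and 189 CPM (log2 fold change -1.07, standard error 0.35), and Sec61g, the small channel subunit, 159.6, 79.4, 57.5 and 56.7 CPM (-1.07). Fkbp11, a prolyl isomerase of the secretory pathway, had 29.7, 22.7, 9.55 and 12.6 CPM (-1.24). In these 3 genes the groups were separate and Ctrl 1 was the highest library. Also lower at an unadjusted p under 0.05 were Fkbp2, Cnpy2, Cnpy3, Ppib and Kdelr1 among the folding genes (log2 fold changes -0.89 to -0.76), and Spcs2, Ddost, Dad1 and Ostc of the signal peptidase and the oligosaccharyltransferase (-0.92 to -0.75). Edem2, a mannosidase of the degradation route (-0.67), and Creb3l1, a transducer related to ATF6 (-1.20), were so too.

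The ATF4 targets among them had 32 negative of 42 with a median of -0.23, and 4 were lower at an unadjusted p under 0.05. They were Atf5, Pck2 (128 and 97.3 CPM in Ctrl, unadjusted p = 0.0118 in edgeR), Slc6a9 and Cth, and in the last 2 Ctrl 2 was higher than Ctrl 1. Slc6a9, a glycine transporter, had 163, 174, 71.8 and 58.2 CPM (log2 fold change -1.37, standard error 0.29, unadjusted p = 0.00242 in edgeR), and Cth, which makes cysteine from cystathionine, had 38.7, 51.8, 12.8 and 15.2 CPM (-1.69, 0.35, 0.00194). Both passed in DESeq2, with adjusted p-values of 0.0294 and 0.0165, and not in edgeR. The 8 eIF2 and eIF2B subunits had a median of -0.09 and the 7 tested signal transducers of -0.38. The 15 tested further degradation genes had a median of -0.22, with 13 negative.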

How the data were processed

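RNA from sorted GFP+ cells was sequenced as bulk RNA-seq in 4 libraries, 2 Ctrl and 2 A5-CKO, with groups taken from the labels. The deposited table holds raw counts per gene made by the authors. Trim Galore 0.6.10, HISAT2 2.2.1, featureCounts 2.0.3 and the mm10 genome are named in the submitters' processing notes. The methods add removal of duplicates, which can lower the counts of the most abundant genes. They also name removal of ribosomal RNA reads, under RNA-seq but in a paragraph that ends in peak calling and not in counting. Whether that step was applied to these counts is therefore not clear. The counting is described for another assay of the study. The strand setting is not given in the sources used here, so reads of overlapping antisense genes cannot be told apart. The count columns of the controls are called WT in the table, although the labels give Alkbh5flox/+.

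Genes were kept by filterByExpr of edgeR 4.0.16 (R 4.3.3) and scaled by TMM. All 16661 were tested with the quasi-likelihood test, with Benjamini-Hochberg adjustment at 0.05. The procedure was also run on simulated counts, at the spread between replicates of these data and at a much smaller one. A minimum number of recovered genes was required only at the smaller spread. The simulation thus does not show how many changes can be found at the spread of these libraries. The alternatives were other scalings (RLE, library totals only), other filters on low counts, DESeq2 1.42.0, limma-voom 3.58.1, a replicate block, a correction for GC content and length, and leaving out each library. Nothing states whether each library is 1 animal, so p-values measure only the spread between these libraries. An exact permutation test of 2 against 2 libraries cannot give a two-sided p below 0.333, so none is reported. Depth was 18144865 to 20811757 counts, and 3 counts correspond to 0.128 to 0.177 CPM, which covers counting error only. The Ctrl libraries differed from each other by more than counting error (chi-square per degree of freedom 120), as did the A5-CKO libraries (107). Transcript lengths came from GENCODE M21 and promoters from RefSeq. The members and lists were chosen with earlier results of these data known. All members could be named, and from each further list at most 6 genes with an unadjusted p under 0.05. Nupr1, Mthfd2 and the library values of overlapping members were added after their values were seen. Coordinates are 1-based on GRCm38.p6.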

Additional observations from a re-analysis of the deposited data

How the results depend on the processing

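No member had an adjusted p under 0.05 in any of the alternatives run. With library totals only, the median of the members was 0.0709 against 0.30 for all genes, and 18 were lower, against 31.4%. At an unadjusted p under 0.05 in edgeR stood 2 members, where 1877 of 16661 genes did. Both were higher in A5-CKO, so that all 4 lower ones were lost. Below Ctrl lay 7 members and above 8, against 10.1% and 34.8% of all genes. With RLE scaling 13 lay below and 2 above, against 21.2% and 22.3% of all genes. Corrected for GC content and length, the median was -0.35 against -0.07 for all genes so corrected. Lower were 34 members, against 55.4% of those genes. Below Ctrl lay 22 members and above 2, against 25.3% and 14.6%. Limma-voom gave 3 members at an unadjusted p under 0.05, where 1445 of 16661 genes were. DESeq2 called 55 genes over the whole table, among them Alkbh5 (-2.01, adjusted p = 0.0248). The log2 fold change of Hspa5 was 0.00998 with RLE scaling, 0.00998 in DESeq2, 0.0123 with a minimum of 10 counts and 0.28 with library totals only, which also gave 0.0486 for Calr, 0.19 for Atf4, 0.14 for Ddit3 and 0.13 for Ern1. The same correction gave 0.23 for Atf4, 0.0576 for Ddit3 and -0.34 for Atf6, and limma-voom 0.0912 for Ddit3. A replicate block left 2 members at an unadjusted p under 0.05 in edgeR, where 754 of 16661 genes were, and gave 0.0869 for Ddit3. The deviations of same-numbered libraries from their group means had a correlation of -0.38 over 14961 genes. With 2 libraries a genotype this cannot show whether same-numbered libraries shared a litter or a day, and the sources used here do not say.

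Leaving out 1 library, the median ranged from -0.37 to -0.18, the members lower from 22 (without Ctrl 1) to 32, those at an unadjusted p under 0.05 from 0 (without A5-CKO 1) to 4, those below Ctrl from 19 to 26 and above from 3 to 9, the genes called over the whole table from 0 to 1 (without A5-CKO 2), and Alkbh5 from -2.60 to -1.56. With fewer libraries a separation is easier to reach, and 34.8% to 40.7% of all genes then lay below and 33.3% to 36.2% above. The ranges were -0.26 to 0.22 for Hspa5, -0.52 to 0.50 for Atf4, -0.79 to 1.04 for Ddit3, -0.14 to 0.34 for Eif2ak3, -0.67 to 0.63 for Ern1, -0.0398 to 0.18 for Atf6, -2.76 to 0.72 for Chac1 and -1.52 to 0.23 for Asns. The cause of these shifts was not tested.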
